A study of Mus musculus with 9 samples.

Results

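Collagen chains are hydroxylated, folded and, once secreted, cross-linked by a small set of dedicated proteins, and 10 of their genes are described here in CXCL12-abundant reticular (CAR) cells, the bone marrow stromal cells that make the chemokine Cxcl12. The 10 are the prolyl 4-hydroxylase alpha subunits P4ha1, P4ha2 and P4ha3, the lysyl hydroxylases Plod1, Plod2 and Plod3, the collagen chaperone Serpinh1, and the lysyl oxidases Lox, Loxl1 and Loxl2. A gene was taken as measured where a probe set of the array carried its symbol and no other. That held for 9 of the 10, each by 1 probe set, out of 19938 genes measured in all. The probe set that lists Loxl2 also lists a second symbol, so Loxl2 was not analysed here.

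All mice carried the Cxcl12+/gfp genotype, so the controls too had 1 Cxcl12 allele that carries gfp. Cells that were bright for CXCL12-GFP and lineage-negative were sorted from bone marrow. Over 5 days the animals received either 250 µg/kg per day of G-CSF (granulocyte colony-stimulating factor, which drives neutrophil production; 5 arrays) or the vehicle PBS (phosphate-buffered saline; 4 arrays). The arrays were Mouse Gene 1.0 ST. The titles call the arrays biological replicates without naming the animals or pools behind them, so the error behind each p-value is the spread among arrays, which may be partly technical. The ages, sexes and strain of the mice are not in the labels.

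In the endoplasmic reticulum, prolyl 4-hydroxylases convert proline to hydroxyproline, which stabilises the collagen triple helix. Lysyl hydroxylases modify lysines that later carry sugars or become cross-link sites, and the chaperone encoded by Serpinh1 (HSP47) binds the folded helix on its way out of the cell. Lysyl oxidases act outside the cell, where they oxidise lysine and hydroxylysine so that collagen and elastin fibres become covalently cross-linked. Several of these genes, P4ha1, P4ha2, Plod1, Plod2 and Lox among them, are known targets of hypoxia-inducible factor (HIF).

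Levels are log2 of the deposited RMA intensities, a change is the G-CSF mean less the PBS mean of those levels, given with its limma standard error (SE), and a gene was called where its p, adjusted by Benjamini-Hochberg over all 21789 probe sets tested, was under 0.05. Because probes differ in affinity, the level of 1 probe set is not compared with that of another. CAR cell markers were bright on every array, with a mean over 12 markers of 10.53 to 10.74 in PBS and 9.81 to 9.84 in G-CSF, and 7 of the 12 were called lower. The source names of these samples speak of pre-B colonies, of wild-type littermates for 5 arrays and of an Hspa9+/- genotype for G-CSF replicates 2 to 5, which the titles, genotypes and protocols contradict. The mean of 9 B cell markers was 5.52 to 5.87 in PBS and 4.94 to 5.32 in G-CSF. That list holds Ebf1 (10.10 and 9.19), which is also counted among the CAR cell markers. The arrays also fell into 2 sets along the first principal component (34.9% of the variance). Set 1 held PBS replicates 1 and 2 and G-CSF replicates 1 to 3, and set 2 held the other 4 arrays, among which PBS replicate 3 lay farthest out. The labels name no batch, and this split was drawn from the values. A difference between the sets is therefore partly built in, and the share of all probe sets that separate by set was not counted. Fits that include the set as a block, and changes inside each set, are given where they bear on a result. The mean of 15 ribosomal protein genes was 10.44 to 10.72 in set 1 and 9.31 to 10.07 in set 2. The interquartile range of log2 levels over all probe sets was 2.79 to 2.99 in set 1. In set 2 it was narrower, at 2.45 (PBS replicate 3) to 2.76. The part of this narrower spread in the gaps between sets was not tested for any gene.

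After 5 days of G-CSF, none of the 9 genes was called changed, although the fitted change was above 0 for all 9. The changes ran from 0.018 (Lox) to 0.66 (P4ha2), with a median of 0.30, while the median over all probe sets tested was 0.0061 and 51.3% of them lay above 0. An upward shift of this size was also seen in 15 ribosomal protein genes, of which 14 had a change above 0, with a median of 0.36 and 0 called (mean level 9.31 to 10.45 in PBS and 10.05 to 10.72 in G-CSF). Whether the 2 shifts are related was not tested. In the limma fit 0 of 9 were called higher and 0 of 9 lower, against 0.743% and 0.877% of all probe sets (353 called in all, or 1.62%). At an unadjusted p under 0.05, 2 of 9 (P4ha2 and Plod1) were higher and 0 lower, against 4.41% of all probe sets higher and 9.22% in either direction. With the array set as a block, P4ha2 and Plod2 were called higher, so that 2 of 9 passed, against 1.32% of all probe sets higher and 2.74% in either direction; this block was added after seeing the data. Leaving out PBS replicate 1 lowered the total of 353 to 210, leaving out G-CSF replicate 1 to 222 and leaving out G-CSF replicate 4 to 224. With any 1 array left out, 0 of the 9 genes were called.

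**Figure D1:**
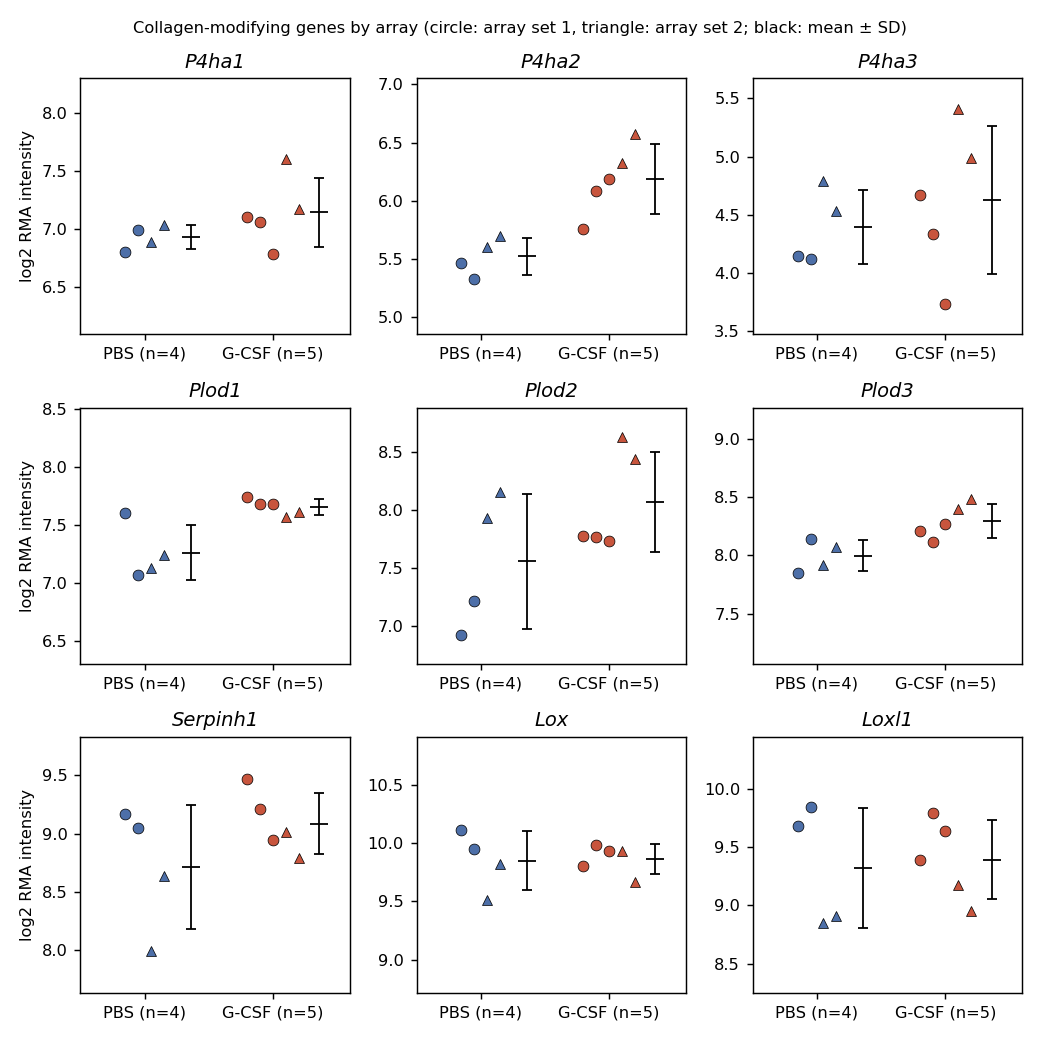
Log2 RMA intensity of the 9 measured genes on each array, with PBS in blue (n = 4), G-CSF in red (n = 5), circles for array set 1, triangles for array set 2, and the mean ± SD in black; every panel spans the same number of log2 units. The P4ha2 arrays separate by treatment, the Plod2 and Loxl1 arrays separate by array set, and the Lox arrays overlap throughout. The sets were drawn from these same values, so a separation by set is partly built in.

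P4ha2 encodes a catalytic alpha subunit of collagen prolyl 4-hydroxylase and had the smallest p of the 9 genes. Its log2 levels were 5.46, 5.33, 5.60 and 5.70 in PBS replicates 1 to 4. In G-CSF replicates 1 to 5 they were 5.76, 6.08, 6.18, 6.32 and 6.58. Every G-CSF array lay above every PBS array, with the closest pair being G-CSF replicate 1 and PBS replicate 4. P4ha2 was the only member of the 9 whose groups did not overlap, a pattern seen upward in 2.18% and downward in 2.46% of all probe sets. The mean went from 5.52 ± 0.16 (SD, n = 4) to 6.19 ± 0.30 (n = 5), a 1.59-fold difference (change 0.66, SE 0.17, 95% confidence interval 0.29 to 1.04) that did not pass the threshold in limma (adjusted p = 0.0997). With the array set as a block the change was 0.70 and passed in limma (adjusted p = 0.0156). With array weights it was 0.76 and passed (adjusted p = 0.0478, limma). These settings called 598 and 445 probe sets in all, against 353 without them. Over all alternatives the adjusted p ran from 0.0156 to 0.269. Inside the sets the change was 0.62 in set 1 and 0.80 in set 2.

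P4ha1, another catalytic alpha subunit, showed no separation. It was at 6.80, 6.99, 6.89 and 7.04 in PBS replicates 1 to 4 and at 7.10, 7.06, 6.78, 7.61 and 7.17 in G-CSF replicates 1 to 5. G-CSF replicate 3 was the lowest of all 9 arrays and G-CSF replicate 4 the highest. The change was 0.21 (SE 0.17, interval -0.15 to 0.58, adjusted p = 0.846), and 0.097 without G-CSF replicate 4. P4ha3, the remaining alpha subunit, spread widely in G-CSF, from 3.74 (replicate 3) to 5.41 (replicate 4), around PBS arrays at 4.12 to 4.79. Its change of 0.23 had the widest interval of the 9 genes, from -0.40 to 0.86 (adjusted p = 0.942), and was 0.037 without G-CSF replicate 4.

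Whether the 3 alpha subunits changed unequally was tested on their differences inside each array, as part of 7 pairs of related enzymes. The log2 difference P4ha1 minus P4ha2 averaged 1.41 in PBS and 0.96 in G-CSF. It moved by -0.45 (exact permutation test, two-sided, p = 0.0635, adjusted over the 7 pairs 0.444; 95% interval -0.90 to 0.04). It did not pass, and the smallest p that 4 against 5 arrays allow is 0.00794. After adjustment over the 7 pairs, a pair standing alone could not pass even at that p. P4ha2 minus P4ha3 moved by 0.43 (exact permutation p = 0.230; interval -0.36 to 1.24), and P4ha1 minus P4ha3 by -0.019 (exact permutation p = 0.944; interval -0.57 to 0.57). Neither passed, under the same limit, and the intervals are wide beside the changes themselves.

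The 250 bases upstream of the 3 alpha subunit genes are shown because P4ha2 was the only one whose groups did not overlap. The sequences are RefSeq's, of build GRCm38.p6, all on the plus strand, 5′ to 3′. Capitals mark the HIF core letters ACGTG and GCGTG on either strand, which on the other strand read CACGT and CACGC. P4ha2 lies at chr11:54100674-54100923, P4ha1 at chr10:59323046-59323295 and P4ha3 at chr7:100285270-100285519.
P4ha2: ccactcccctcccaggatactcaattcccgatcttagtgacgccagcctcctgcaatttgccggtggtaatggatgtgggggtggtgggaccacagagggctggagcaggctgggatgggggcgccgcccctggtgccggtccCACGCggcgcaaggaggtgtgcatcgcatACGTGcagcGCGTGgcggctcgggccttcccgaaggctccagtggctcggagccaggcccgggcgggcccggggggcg
P4ha1: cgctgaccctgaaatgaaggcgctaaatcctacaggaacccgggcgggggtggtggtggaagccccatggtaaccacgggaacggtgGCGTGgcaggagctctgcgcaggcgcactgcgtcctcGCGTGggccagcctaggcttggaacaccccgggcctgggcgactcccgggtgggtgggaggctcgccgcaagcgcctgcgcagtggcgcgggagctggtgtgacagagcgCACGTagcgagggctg
P4ha3: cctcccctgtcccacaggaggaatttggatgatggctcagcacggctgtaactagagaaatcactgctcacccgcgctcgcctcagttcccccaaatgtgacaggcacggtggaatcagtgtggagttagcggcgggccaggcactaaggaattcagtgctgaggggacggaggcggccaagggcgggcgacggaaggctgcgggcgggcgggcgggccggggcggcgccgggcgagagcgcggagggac

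P4ha2 and P4ha1 each hold 1 ACGTG and 2 GCGTG matches in these windows, and P4ha3 holds none. Of the 6 members whose windows were counted, 5 hold at least 1 match. No promoter was at hand for Plod2, Loxl1 or Loxl2. Lox was left out of this count by its chromosome, which the 32851 windows below include, so the count does not cover it. Plod3 holds 1 ACGTG and 3 GCGTG, Plod1 holds 1 GCGTG and Serpinh1 holds 1 ACGTG. Among 32851 promoter windows of the same length, 16.6% hold ACGTG, 28.2% hold GCGTG and 38.6% hold either. The 6 counted windows are 55.6% to 70.0% G or C, and the 32851 were not matched to them for this. The shares are therefore no measure of enrichment. The letters are short, no overlap between matches occurred in these 6 windows, and a match is a description of the sequence only.

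Plod1, lysyl hydroxylase 1, was at 7.60, 7.07, 7.13 and 7.24 in PBS replicates 1 to 4. In G-CSF replicates 1 to 5 it was at 7.74, 7.68, 7.68, 7.57 and 7.61. The G-CSF arrays were tightly grouped (SD 0.07, n = 5) and lay above 3 of the 4 PBS arrays, while PBS replicate 1 fell inside their range. The mean went from 7.26 ± 0.24 to 7.66 ± 0.07, a change of 0.40 (SE 0.14, interval 0.08 to 0.71) with an adjusted p of 0.318 in limma. The change was 0.51 without PBS replicate 1 and again not called (adjusted p = 0.148). Inside the array sets it was 0.37 and 0.40, with every G-CSF array above every PBS array in each.

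Plod2, lysyl hydroxylase 2, which modifies the telopeptide lysines that form stable cross-links, varied more with array set than with treatment. In PBS it was at 6.93 and 7.21 in set 1 and at 7.93 and 8.15 in set 2. In G-CSF it was at 7.78, 7.77 and 7.73 in set 1 and at 8.63 and 8.44 in set 2. Each set had its G-CSF arrays above its PBS arrays, but PBS in set 2 lay above G-CSF in set 1. Pooled, the change was 0.51 (SE 0.28, interval -0.10 to 1.12, adjusted p = 0.679). With the set as a block it was 0.60 (SE 0.13, interval 0.32 to 0.87) and was called (adjusted p = 0.0254, with a range of 0.0254 to 0.87 over all alternatives). It was 0.69 in set 1 and 0.49 in set 2, and set 2 exceeded set 1 by 0.97 in PBS and 0.78 in G-CSF.

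Plod3, lysyl hydroxylase 3, which also carries glycosyltransferase activity, was at 7.85, 8.14, 7.92 and 8.08 in PBS replicates 1 to 4. G-CSF replicates 1 to 5 were at 8.21, 8.12, 8.27, 8.40 and 8.49. G-CSF replicate 2 lay just under PBS replicate 2, and all other G-CSF arrays lay above every PBS array. The change of 0.30 (SE 0.14, adjusted p = 0.543 in limma) had an interval from -0.00007 to 0.60. With the set as a block the interval was 0.040 to 0.59 and the gene was not called (adjusted p = 0.301). Among the lysyl hydroxylases no pair passed the exact permutation test for unequal change, which a pair standing alone could not pass (adjusted p = 0.944 for each). Plod1 minus Plod2 moved by -0.11 (p = 0.865, exact, interval -1.05 to 0.80). Plod1 minus Plod3 moved by 0.10 (p = 0.603, exact, interval -0.33 to 0.50) and Plod2 minus Plod3 by 0.21 (p = 0.492, exact, interval -0.48 to 0.99). Permuted only inside the array sets (60 assignments, added after seeing the data), these differences were -0.22 (exact p = 0.233), 0.073 (exact p = 0.783) and 0.29 (exact p = 0.0667). None passed after adjustment (0.467, 0.914 and 0.233), which a pair standing alone could not.

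**Figure D2:**
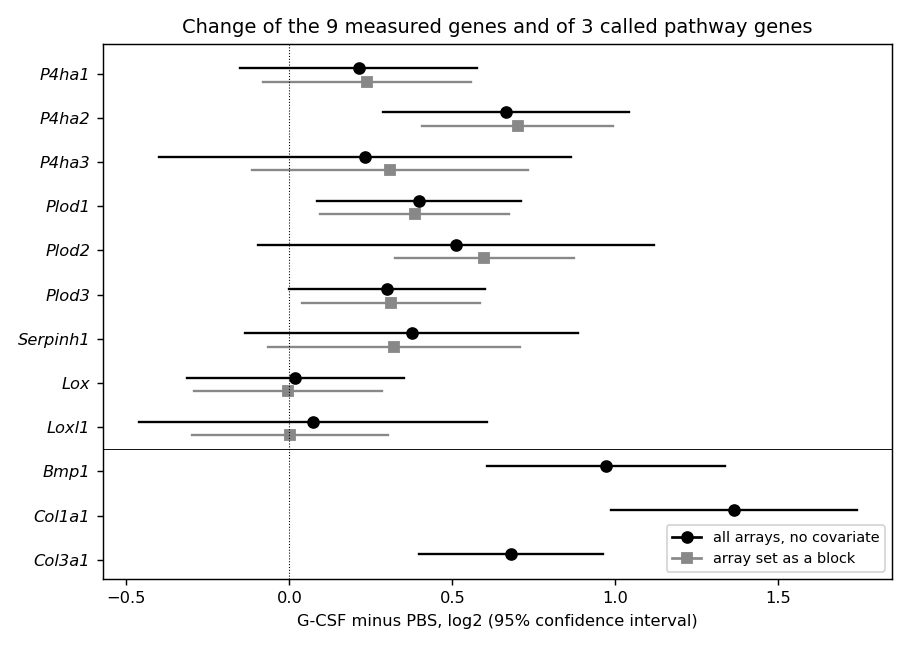
Log2 change after G-CSF, with 95% confidence intervals, for the 9 measured genes and for 3 genes of the pathway lists that were called; black circles are the fit over all 9 arrays and grey squares the fit with the array set as a block. The P4ha2 and Plod1 intervals lie above 0, the Plod2 and Plod3 intervals clear 0 with the block, and the Lox and Loxl1 intervals straddle 0 in each fit.

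Serpinh1, the collagen-specific chaperone, was at 9.17 and 9.05 in PBS replicates 1 and 2 but at 7.99 and 8.63 in PBS replicates 3 and 4. The G-CSF arrays ran from 8.79 (replicate 5) to 9.47 (replicate 1). The groups overlapped, and PBS replicate 3 was the lowest array. The change was 0.38 (SE 0.24, interval -0.14 to 0.89, adjusted p = 0.762) and 0.14 without PBS replicate 3. Inside the sets it was 0.10 in set 1 and 0.59 in set 2. Set 2 lay below set 1 by 0.80 in PBS and by 0.31 in G-CSF. The ribosomal protein mean given above was lower in set 2 as well, and the spread of levels was narrower there. The part of either in the Serpinh1 values was not tested.

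Lox, the founding lysyl oxidase, had a narrow spread and no difference between groups beyond it. It was at 10.11, 9.95, 9.51 and 9.82 in PBS replicates 1 to 4 and at 9.81, 9.99, 9.93, 9.94 and 9.67 in G-CSF replicates 1 to 5. The G-CSF arrays all lay inside the PBS range. The change was 0.018 (SE 0.15, adjusted p = 0.995), with an interval of -0.31 to 0.35, or 0.80-fold to 1.27-fold. Its sign turned in 6 of 21 alternatives (-0.094 without PBS replicate 3, for example), so no direction is given. Loxl1, a lysyl oxidase known for its part in elastic fibre assembly, split by array set. It was at 9.68 and 9.85 in set 1 and 8.85 and 8.91 in set 2 of the PBS arrays. The G-CSF arrays were at 9.39, 9.80 and 9.64 in set 1 and at 9.17 and 8.96 in set 2. The change was 0.071 (SE 0.25, interval -0.46 to 0.60, adjusted p = 0.985), and its sign turned in 5 of 21 alternatives. With the set as a block it was 0.0013, with an interval of -0.30 to 0.30. Lox minus Loxl1 moved by -0.054 (exact permutation p = 0.786; interval -0.54 to 0.46).

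In PBS, the mean levels of the 9 genes ran from 4.39 to 9.85. Lox (9.85 ± 0.25, n = 4), Loxl1 (9.32 ± 0.52) and Serpinh1 (8.71 ± 0.53) were at the 98.3rd, 97.1st and 95.3rd percentile of brightness among probe sets. Plod3 (7.997 ± 0.13), Plod2 (7.56 ± 0.58) and Plod1 (7.26 ± 0.24) were at the 91.0th, 86.9th and 83.0th. P4ha1 (6.93 ± 0.10) was at the 78.1st, P4ha2 at the 52.2nd and P4ha3 (4.39 ± 0.32) at the 28.9th percentile. A percentile describes the brightness of a probe set and does not rank transcripts, and RMA values carry no detection call, so P4ha3 was not called absent. PBS arrays varied least for P4ha1 and most for Plod2, with SDs of 0.10 and 0.58.

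**Figure D3:**
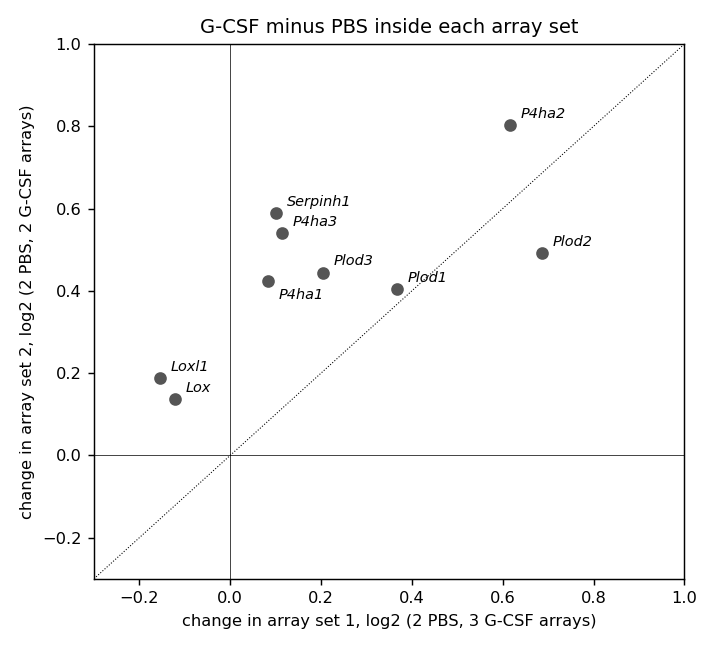
Change of each gene inside array set 1 (2 PBS and 3 G-CSF arrays, x axis) and inside array set 2 (2 PBS and 2 G-CSF arrays, y axis), on the log2 scale, with the line of equal change dotted. P4ha2 and Plod2 have the largest change in set 1, at 0.62 and 0.69, and Lox and Loxl1 are the 2 genes with opposite signs in the sets.

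In array set 1, 7 of 9 genes had a change above 0, against 54% of all probe sets, and in array set 2 all 9 did, against 50.5%. Every G-CSF array lay above every PBS array for 3 of 9 genes in set 1 (P4ha2, Plod1 and Plod2), against 15.3% of all probe sets. The same held for 8 of 9 in set 2, all but Lox, against 20.5%, where each group has only 2 arrays. For P4ha2, Plod1 and Plod2 it held in both sets, as it did for 4.92% of all probe sets. No difference in change between the sets was called for any of the 9 genes by the limma interaction term, whose adjusted p ran from 0.864 to 0.986. That term called 0 of all probe sets, with 1234 at an unadjusted p under 0.05, none of them one of the 9 genes.

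Other genes of collagen processing included 1 that rose. Of 23 measured from a list of 25, 1 was called higher, 0 lower and 22 were not called, with a median change of 0.14. Bmp1, the procollagen C-proteinase that also activates lysyl oxidase, was at 8.43, 8.46, 7.86 and 8.11 in PBS replicates 1 to 4 and at 8.99, 9.42, 9.36, 9.07 and 9.08 in G-CSF replicates 1 to 5. All G-CSF arrays lay above all PBS arrays. Bmp1 rose by 0.97 (SE 0.17, adjusted p = 0.0111 in limma). Pcolce, which enhances that proteinase, averaged 11.32 ± 0.25 over the PBS arrays and 11.94 ± 0.25 over the G-CSF arrays, without overlap, and did not pass (change 0.62, adjusted p = 0.125, and 0.0400 with the array set as a block). P4hb, the beta subunit that the 3 alpha subunits share, was named after its values were seen. It was at 9.25 ± 0.40 and 9.75 ± 0.07 (change 0.49, adjusted p = 0.323), with the groups apart. Loxl3 (change 0.63, adjusted p = 0.323) and Loxl4 (change 0.75, adjusted p = 0.167), further lysyl oxidases named in the same way, had overlapping groups and were not called. The Loxl4 values are those of the brighter of its 2 probe sets, and the other had a change of 0.43, also not called.

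The substrates moved in part. Of 10 fibrillar collagen and elastin genes, 2 were called higher, 0 lower and 8 were not called, with a median change of 0.12. Col1a1, the alpha 1 chain of collagen I, ran from 6.72 to 6.95 in PBS and from 7.82 to 8.54 in G-CSF and rose by 1.36 (SE 0.17, interval 0.99 to 1.74, adjusted p = 0.00157 in limma). Col3a1, the chain of collagen III, ran from 6.41 to 6.59 and from 7.05 to 7.34 and rose by 0.68 (SE 0.13, adjusted p = 0.0201). Each had its groups apart. The count was 1 in place of 2 without PBS replicate 1, 2 or 4 or G-CSF replicate 1 or 2. Col11a1, a chain of collagen XI, went the other way, with every G-CSF array below every PBS array, and was not called (change -0.42, adjusted p = 0.277). Col1a2, the partner chain of Col1a1 in collagen I, had a change of 0.10 and was not called (adjusted p = 0.973). Col11a1 and Col1a2 were named after their values were seen.

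General folding genes of the endoplasmic reticulum and targets of HIF were counted in the same way. Of 13 folding genes 0 were called and the median change was 0.070. The smallest p values were those of Pdia6, a disulfide isomerase (change 0.49, adjusted p = 0.642 in limma), and Sdf2l1, an endoplasmic reticulum chaperone partner (0.31, adjusted p = 0.702). Of 15 HIF targets measured from a list of 16, 0 were called, 11 had a change above 0 and the median was 0.25. Adm, the peptide hormone adrenomedullin, averaged 4.94 ± 0.60 over the PBS arrays and 6.28 ± 0.54 over the G-CSF arrays (change 1.34, adjusted p = 0.0555 in limma, and 0.0464 with the array set as a block). Bnip3, a mitophagy receptor, was at 6.52 ± 0.15 and 7.17 ± 0.24 (change 0.65, adjusted p = 0.0690, and 0.0291 with the block). These Bnip3 values are those of the brighter of 2 probe sets, and the other had a change of 0.47, not called in limma without the block.

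**Figure D4:**
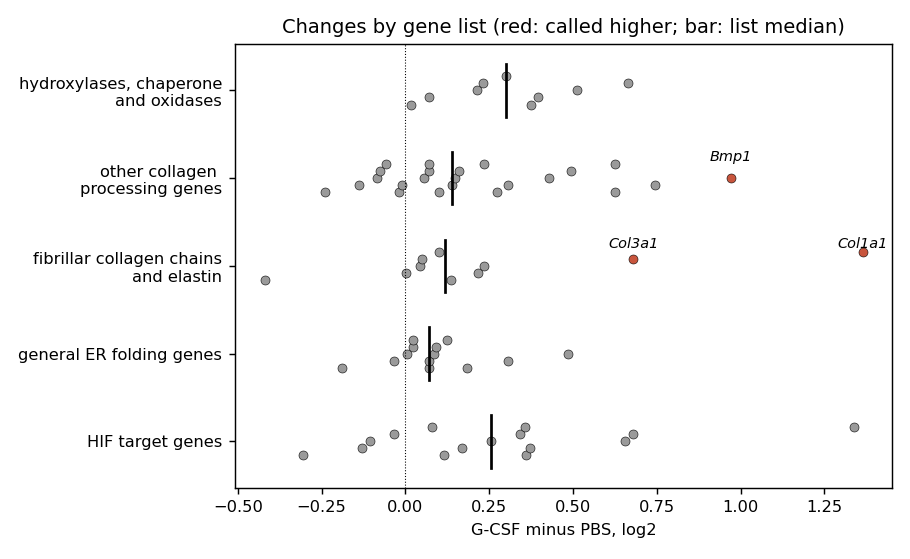
Change of every measured gene (G-CSF minus PBS, log2) in the hydroxylase, chaperone and oxidase group and in 4 lists of related genes, with the list median as a black bar and called genes in red. Bmp1, Col1a1 and Col3a1 are the genes called, and the medians run from 0.070 to 0.30.

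Several lists that mark other marrow cells also held called genes. Smooth muscle and pericyte markers had a mean over 10 genes of 5.43 to 5.71 in PBS and 5.89 to 6.15 in G-CSF, with 1 of 10 called higher (Acta2) and 0 lower. Fibroblast markers had a mean over 7 genes of 5.41 to 5.98 and 5.86 to 6.30, with 1 of 7 called higher (Dcn). Neutrophil markers had a change above 0 for 15 of 15 genes, with a median of 0.94. Their mean was 7.64 to 8.98 in PBS and 8.50 to 9.28 in G-CSF, with 2 of 15 called higher (Mmp9 and Csf3r). That neutrophil count was 0 without PBS replicate 1 or G-CSF replicate 1, 3 or 4, 1 without PBS replicate 3 or 4 or G-CSF replicate 5, and 6 without PBS replicate 2. Mature osteoblast and osteocyte markers had a mean over 6 genes of 7.29 to 7.58 and 6.61 to 6.95, with 1 of 6 called lower (Phex). Of 9 B cell markers, with the means given above, 0 had a change above 0 and 2 were called lower (Cd79a and Ebf1). The B cell count was 1 without PBS replicate 1, 2 or 4 or G-CSF replicate 1, 2, 3 or 4, and 3 without G-CSF replicate 5. Erythroid markers had a mean over 7 genes of 5.15 to 6.18 in PBS and 4.50 to 4.95 in G-CSF, with 0 of 7 above 0. Of these, 1 was called lower (Car1, change -3.57), a call lost without PBS replicate 1 or 4 or G-CSF replicate 1. Macrophage markers had a mean over 11 genes of 6.07 to 6.55 and 5.76 to 6.12, with 1 of 11 called lower (Vcam1, also counted among the CAR cell markers), and 3 without PBS replicate 3. None of 10 endothelial or 6 megakaryocyte and platelet markers was called. Of 8 chondrocyte markers 1 was called lower (Comp), a call lost when any array other than PBS replicate 3 was left out. RMA lists no probe set at 0, and fewer cells of a type and less RNA per cell cannot be told apart in bulk samples. The part of these cells in the P4ha2 and Plod values was not tested.

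The genes whose profile over the 9 arrays lay closest to that of P4ha2, each centred on its own mean, were Mical2, Vat1, Scara3, Thbs3 and Chd7. Their root mean square distances were 0.10, 0.13, 0.13, 0.14 and 0.14 on the log2 scale, where the median over all genes was 0.46. Their changes were 0.67, 0.67, 0.59, 0.64 and 0.62, and none of the 5 was called (adjusted p from 0.0703 to 0.202 in limma). The 5 were picked by closeness over the same 9 arrays, so changes near that of P4ha2 follow from the choice.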

How the data were processed

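The authors summarised each probe set to an RMA intensity, and the submitters' processing notes name Affymetrix Expression Console for this step; versions and library files are not given in the sources used here. RMA normalises arrays to each other, so a change in total RNA per cell cannot be seen. The values were linear (array medians 34.72 to 37.24), so log2 was taken. Sorted cells went into TRIzol LS and cDNA came from a NuGEN Pico SL kit, per the labels' protocols; amplification can add spread between arrays. Of 35553 probe sets, 21789 with 1 symbol in the platform annotation were tested, 1621 had several symbols and 12143 had none listed. For a gene with several probe sets the brightest was used; Adamts3 had 16, which disagreed (1 was called lower), and is not described.

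G-CSF and PBS were compared with limma 3.58.1 in R 4.3.3 (lmFit, eBayes, two-sided, no covariates). Pairs of related enzymes were compared by an exact permutation test over 126 assignments. Steps were tested on simulated data. The genes, lists and tests were chosen with earlier results of these data known. Named genes were all members, called genes of the 4 related lists, the 2 with the smallest p in each, and the 5 nearest profiles to the member with the smallest p; P4hb, Loxl3, Loxl4, Col1a2 and Col11a1 fall outside this rule and were named after their values were seen, as were called marker genes. Alternatives changed the probe sets tested, filter, variance model, normalisation, centring, pseudocount, weights, replicate block, summary over probe sets and arrays left out. Array sets were added after seeing the data. The number of arrays limits the precision.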

Additional observations from a re-analysis of the deposited data

How the results depend on the processing

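Of the 9 genes, 7 kept a change above 0 in every alternative that gave a value; Lox was at -0.064 with a further quantile normalisation, -0.070 with array weights, -0.0047 with the array set as a block and -0.12 in set 1 alone, and Loxl1 at -0.15 with array weights and -0.15 in set 1 alone. Leaving out 1 array gave -0.094 to 0.11 for Lox and -0.086 to 0.25 for Loxl1. The count of members called higher was 1 with array weights and 2 with the set block, and 0 otherwise. P4ha3 has no value with brighter probe sets only. With 1 array left out, P4ha2 was at 0.57 to 0.77 (adjusted p = 0.0545 to 0.262 in limma). All probe sets called went from 353 to 181 (all probe sets tested), 445 (array weights) and 598 (set block). They went to 202 (set 1) and 59 (set 2), and to 210 to 318 with 1 array left out. Other collagen processing genes called went from 1 to 2 (set block) and to 0 (set 1, set 2); fibrillar genes from 2 to 1 (set 1), 0 (set 2) and 1 to 2 with 1 array left out; HIF targets from 0 to 1 (brighter probe sets, quantile normalisation) and 2 (set block). No pair of enzymes passed under any alternative, but in no setting could a pair standing alone have passed after adjustment. The replicate block could not have called any pair, so these counts do not bear on equal change. P4ha1 minus P4ha3 was 0.035 with log2(value + 16) and -0.16 to 0.094 with 1 array left out. With 1 array left out, Plod1 minus Plod2 was -0.32 to 0.21, Plod1 minus Plod3 -0.013 to 0.26 and Lox minus Loxl1 -0.20 to 0.074. The replicate numbers did not pair the arrays (correlations of deviations 0.281, 0.14, -0.282 and 0.352 for numbers 1 to 4). With the replicate block 180 probe sets, 0 members, 0 other collagen processing genes and 1 fibrillar gene were called, and P4ha1 minus P4ha3 was 0.065. The cause of these shifts was not tested.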
